A study of Sordaria macrospora with 16 samples.

Results

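The regions described here were short stretches of the *Sordaria macrospora* genome that carried H3K27me3 peaks but no histone H3 peak in wild-type mycelium. They were chosen by peak positions in the 4 wild-type lists alone: bases shared by both H3K27me3 lists were kept, using only peaks narrower than 5 kb, and bases in either H3 list were removed. Remaining pieces of at least 200 bp that lay more than 100 kb from both chromosome ends were retained. This gave 295 regions with a summed length of 215 kb, 0.566% of the interior of the 7 chromosomes, out of 45528 peaks in the 8 lists of the series. Their full H3K27me3 coverage and lack of H3 peaks in the wild type therefore follow from the choice and are no result, whereas the lists of the mutant were not used for it.

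The series compared mycelium of delta-asf1, in which the histone chaperone gene *asf1* is deleted, with wild-type mycelium by chromatin immunoprecipitation and sequencing. There were 4 groups of 2 biological replicates: delta-asf1 with the H3K27me3 antibody, delta-asf1 with the H3 antibody, and the wild type with each of these antibodies. Cultures were grown at 27°C in the light, for 3 days in delta-asf1 and for 2 days in the wild type, so that strain and growth time cannot be told apart. Chromatin was cut with micrococcal nuclease (230 U/ml, 105 min), and broad peaks were deposited for each library.

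ASF1 hands histones H3 and H4 over during nucleosome assembly and disassembly. H3K27me3, the trimethylated form of H3 at lysine 27, is set by Polycomb repressive complex 2 and marks silenced, facultative heterochromatin. In *Neurospora crassa*, a close relative of *S. macrospora*, it forms long domains that are frequent near chromosome ends, beside shorter patches in the interior. H3 itself is part of nearly every nucleosome, so an H3 peak marks a place where more H3 was recovered than in the surroundings. A place without an H3 peak is not free of nucleosomes.

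The lists held 4401 to 6525 peaks and covered 5.81 to 12.3 Mb. Median fold enrichment over the background of the peak caller was low, at 1.28 to 1.43 per list. No peak of the 4 replicate 1 lists had a −log10 q under 2.02, with minima of up to 2.05, whereas the minima of replicate 2 were 1.00 to 1.03. The replicate numbers thus differed in their cutoff, and values are given per replicate. The delta-asf1 H3 list of replicate 2 was the smallest, with 4401 peaks over 14.8% of the chromosome interior, against 24.7% in replicate 1. No read counts are included, and the depth of the libraries is unknown.

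The regions were a small remainder of the narrow wild-type H3K27me3 signal. Of 1798550 bp shared by both H3K27me3 lists in peaks under 5 kb, 239822 bp (13.3%) lay outside both H3 lists. The regions measured 203 to 2756 bp, with a median of 624 bp. The longest piece below the length limit had 194 bp, and the widest source peak had 4877 bp, against 5018 bp for the narrowest peak above the width limit. In all, 288 H3K27me3 peaks of replicate 1 and 287 of replicate 2 contributed. Fold enrichment of these peaks had a median of 1.36 in replicate 1 (range 1.26 to 1.73) and 1.35 in replicate 2 (1.24 to 2.10), beside medians of 1.37 and 1.32 over all narrow peaks of the same lists. For 123 regions (41.7%), the source peak of replicate 2 had a −log10 q below 2.05, the largest of the list minima. Peaks were not called again at that cutoff. The number of regions depended on each of the 4 wild-type libraries: it was 1997 without H3K27me3 replicate 1, 1051 without H3K27me3 replicate 2, 510 without H3 replicate 1 and 688 without H3 replicate 2.

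Most regions bordered on H3 peaks. In 193 cases (65.4%) the region directly abutted a wild-type H3 peak, and 77 regions (26.1%) lay more than 1 kb from the nearest one, up to 9276 bp. For 73 regions (24.7%), neither H3K27me3 source peak touched an H3 peak at any base. These are called whole-peak regions below, and the other 222, which remained after part of an H3K27me3 peak was removed, are called edge regions. The share of whole-peak regions was 43.9% without wild-type H3K27me3 replicate 1 and 41.1% without wild-type H3 replicate 2, 41.7% with −log10 q of at least 2.05 in all lists (a common q cutoff) and 59.1% among the upper 50% of peaks of each list.

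The first comparison asked whether the same stretches carried H3K27me3 without H3 in delta-asf1 as well. They rarely did. In delta-asf1, H3K27me3 peaks covered 22.7% of the summed length in replicate 1 and 36.8% in replicate 2, a mean of 29.8% ± 9.96 (SD, n = 2). H3 peaks covered 37.2% in replicate 1 and 24.7% in replicate 2, a mean of 30.9% ± 8.79 (n = 2). The ranges of the antibodies overlapped almost entirely, and the mutant lists did not show the antibody difference by which the regions had been chosen in the wild type. No wild-type library was held out of the choice. The difference that further wild-type libraries would show at these regions is therefore unknown. These means depended on wild-type libraries. Without wild-type H3K27me3 replicate 1 they were 18.3% for H3K27me3 and 15.1% for H3. Without wild-type H3 replicate 1 they were 41.5% and 40.8%, and without wild-type H3 replicate 2 they were 43.7% and 40.0%.

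Because the lists differed in how much they covered, each value was divided by the coverage of the chromosome interior in its own list. For delta-asf1 H3K27me3, the regions were covered 1.01 times as much as the interior in replicate 1 and 1.46 times in replicate 2. For delta-asf1 H3 the factors were 1.51 and 1.67. The H3 factors thus exceeded both H3K27me3 factors. The log2 factor was 0.28 ± 0.38 for H3K27me3 and 0.67 ± 0.11 for H3 (SD, n = 2 each), a difference of −0.39 (exact two-sided permutation p = 0.33, the smallest that 2 against 2 lists can give). Within replicate 1 the difference was −0.58 and within replicate 2 it was −0.19. It kept its sign under all 23 alternatives, among them a replicate block that has the same mean by construction. It shrank to −0.08 without wild-type H3K27me3 replicate 2 and to −0.10 without wild-type H3K27me3 replicate 1. Without wild-type H3 replicate 1 it was −0.25, and without wild-type H3 replicate 2 it was −0.16. It was −0.12 without delta-asf1 H3K27me3 replicate 1. It was −0.66 without delta-asf1 H3K27me3 replicate 2. With regions chosen again, it was −0.15 at a common cutoff of 2.05 for −log10 q in all lists and −0.18 among the upper 50% of peaks of each list. At the common cutoff, coverage was 24.1% ± 10.2 for H3K27me3 and 24.3% ± 24.2 for H3 (SD, n = 2 each), so the H3 replicates were far apart.

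A narrower background gave larger factors for both antibodies. Parts of the interior outside wild-type H3 peaks, 63.2% of it, were covered by delta-asf1 H3K27me3 peaks to 5.71% and 10.2% and by delta-asf1 H3 peaks to 6.70% and 5.28% (replicates 1 and 2). Relative to these parts, the regions had 3.98 and 3.61 times the coverage for H3K27me3 and 5.55 and 4.68 times for H3. All 4 mutant lists thus had more peak length in the regions than in other H3-free sequence. Since most regions bordered on H3 peaks, bases were also split at 1 kb from these peaks, in a comparison added after the data had been seen. Among bases within 1 kb of a wild-type H3 peak, those of the regions had 3.58 and 3.16 times the H3K27me3 coverage and 4.89 and 4.41 times the H3 coverage of all such bases. Farther away, H3K27me3 had factors of 4.46 and 4.31, and H3 had 6.57 and 4.80. The higher coverage was present on both sides of 1 kb in all 4 lists. Distances within each side were not matched, and interior coverage was lower farther away (3.31% beyond 1 kb, against 7.86% within 1 kb, for H3K27me3 of replicate 1).

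**Figure D1:**
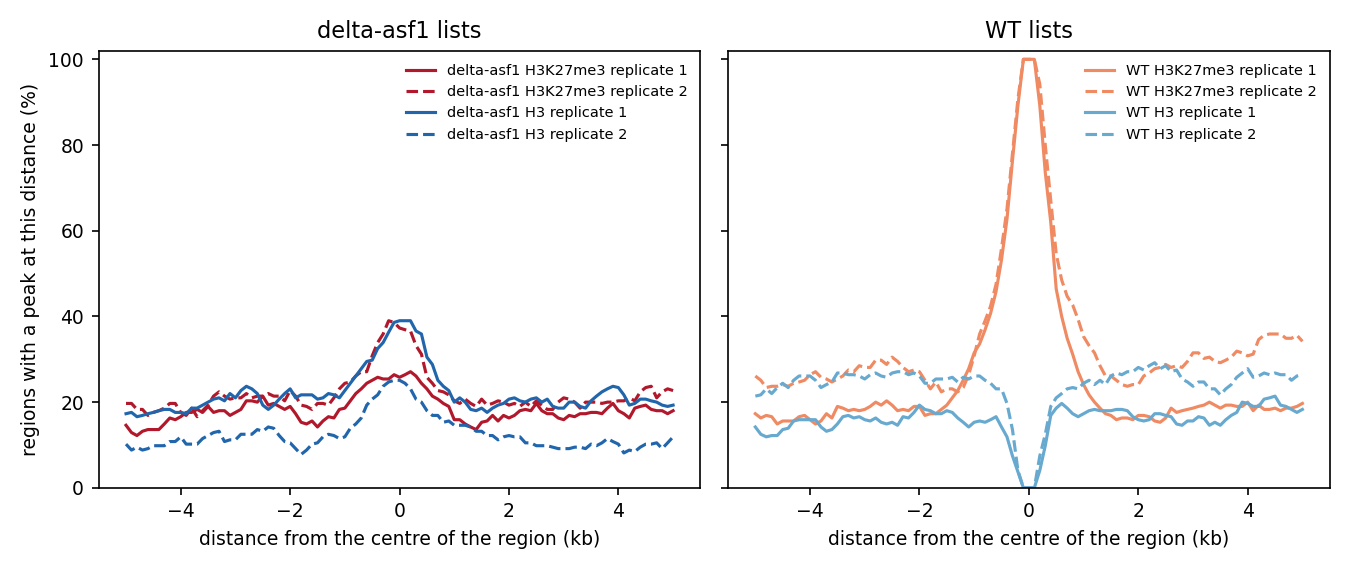
Share of the 295 regions (y axis, %) that had a peak at a given distance from the centre of the region (x axis, kb), for each of the 4 delta-asf1 lists (left) and the 4 wild-type (WT) lists (right). In delta-asf1, both antibodies have a local maximum at the centre, between 25.1% and 39.0%, above flanks of 10.7% to 20.1%. The values of 100% and 0 at the centre in the wild type follow from the choice of regions.

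The plot of peaks around the region centres showed the same. In the delta-asf1 H3K27me3 lists, 25.8% of the regions in replicate 1 and 37.3% in replicate 2 had a peak at their centre, against means of 17.4% and 20.1% at distances of 2 to 5 kb. In the delta-asf1 H3 lists, 39.0% and 25.1% had a peak at their centre, against 20% and 10.7% at 2 to 5 kb. The excess at the centre was 8.34 and 17.1 percentage points for H3K27me3 and 19.0 and 14.4 points for H3. It was present in each list, with overlapping ranges for the antibodies.

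At the level of individual regions, a region was counted as covered in a list when peaks took up 50% or more of its bases. In delta-asf1, 75 regions (25.4%) were covered by H3K27me3 in replicate 1 and 109 (36.9%) in replicate 2. For H3, the numbers were 115 (39.0%) and 74 (25.1%). These lists covered 22.6% and 25.2% (H3K27me3) and 24.7% and 14.8% (H3) of all interior bases. Both H3K27me3 lists covered 38 regions (12.9%), beside 13.4% of all interior tiles of 500 bp and 1.56% of the tiles without wild-type H3 peaks. Both H3 lists covered 40 regions (13.6%), beside 9.07% of all tiles and 0.977% of the tiles without wild-type H3 peaks. The counts for H3K27me3 and H3 were thus nearly equal, the first close to the genome-wide share of tiles and both above the share in H3-free tiles. Without wild-type H3 replicate 1 the shares were 24.7% for H3K27me3 and 20.4% for H3, without wild-type H3 replicate 2 they were 26.6% and 21.4%, and without wild-type H3K27me3 replicate 1 they were 5.21% and 4.66%. With only 1 delta-asf1 list of an antibody to be met, they ranged from 25.4% to 36.9% for H3K27me3 and from 25.1% to 39.0% for H3.

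The wild-type pattern itself, H3K27me3 in both replicates and no base of H3 in either, was found at 3 regions in delta-asf1 (1.02%). The background was 1.13% of all tiles and 0.486% of H3-free tiles. The share was thus near that of all tiles and above that of H3-free tiles, on 3 regions only. The reverse pattern, both H3 lists and no base of H3K27me3, was found at 6 regions (2.03%). Its background was 0.497% of all tiles and 0.266% of H3-free tiles. In all, 62 regions (21.0%) had no peak base in any of the 4 mutant lists. The background was 48.6% of all tiles and 76.5% of H3-free tiles, which at 500 bp were shorter than the median region. The share was 11.4% without wild-type H3 replicate 1, 10.3% without wild-type H3 replicate 2 and 37.3% without wild-type H3K27me3 replicate 1.

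**Figure D2:**
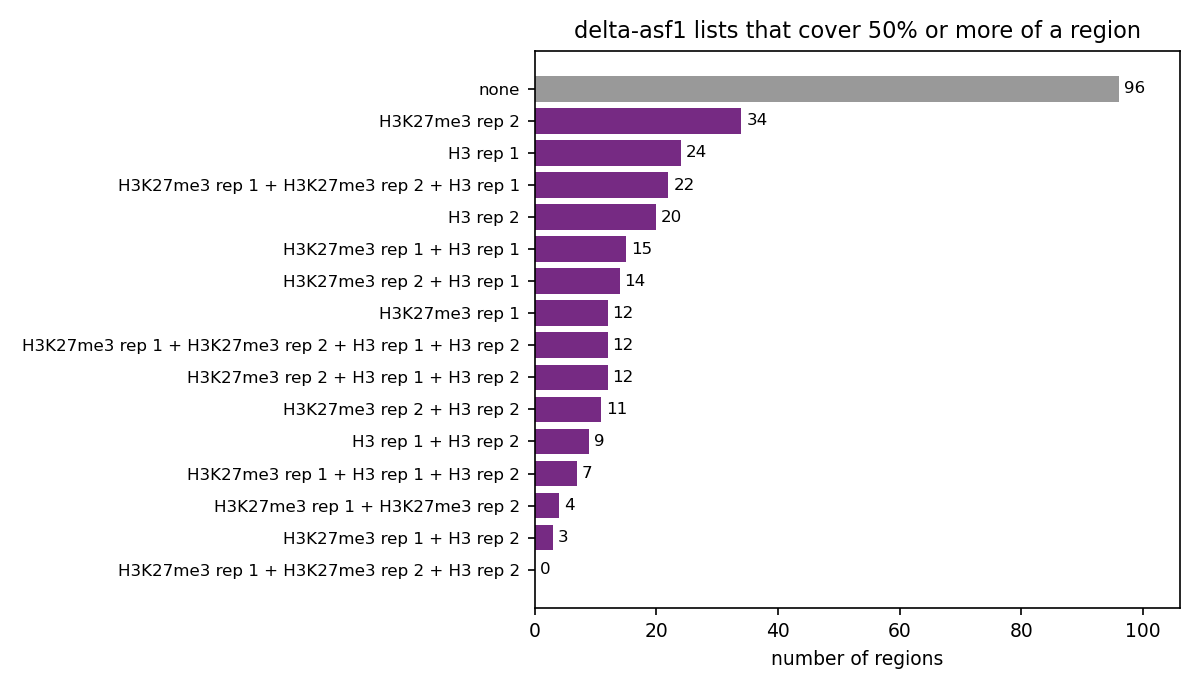
Number of regions (x axis) for each combination of delta-asf1 lists that covered 50% or more of the region (y axis; rep, replicate). No list did so at 96 of the 295 regions, all 4 lists did at 12, and H3K27me3 of both replicates without either H3 list did at 4.

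The combinations of lists varied between regions. Of the 199 regions covered in any mutant list, 90 were covered in exactly 1, 56 in exactly 2, 41 in exactly 3 and 12 in all 4. The 12 regions were 4.07% of all regions, beside 5.37% of all tiles and 0.217% of H3-free tiles. The 96 regions below 50% in every list were 32.5%, beside 58.5% of all tiles and 83.4% of H3-free tiles. Shared regions followed neither the antibody nor the replicate number throughout. Of the 75 regions covered by H3K27me3 in replicate 1, 56 (74.7%) were also covered by H3 in replicate 1, which is 48.7% of the 115 regions of that list. The replicates of H3K27me3 shared 38 regions, 50.7% of those in replicate 1 and 34.9% of those in replicate 2. H3K27me3 of replicate 2 shared 60 regions with H3 of replicate 1 (55.0% and 52.2% of their regions) and 35 with H3 of its own replicate (32.1% and 47.3%). Both H3K27me3 lists thus had most regions in common with the H3 list of replicate 1, the list that covered most regions. No tile shares were tallied for exactly 1, 2 or 3 lists, or for pairs of lists across antibodies. Those counts are therefore description only, and whether tiles show the same mix was not tested.

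Delta-asf1 peaks that covered the regions had fold enrichments near the list medians. Their median fold enrichment was 1.41 and 1.33 for H3K27me3 (replicates 1 and 2) and 1.38 and 1.35 for H3, beside list medians of 1.43, 1.32, 1.39 and 1.35. Their median −log10 q was 3.55 and 1.94 for H3K27me3 and 3.71 and 1.68 for H3. Peaks that covered narrow H3K27me3 pieces inside wild-type H3 peaks had higher medians in each mutant list. For them, −log10 q was 4.10 and 2.18 for H3K27me3 and 4.70 and 1.89 for H3. Their fold enrichment was 1.45 and 1.34 for H3K27me3 and 1.42 and 1.36 for H3. Over the regions, the medians of −log10 q in replicate 2 lay below the smallest value in the lists of replicate 1. When a cutoff of 2.05 was applied to all 8 lists, the wild-type lists changed as well and 278 regions were chosen again. Of these, 8.63% were covered in both H3K27me3 lists, 5.76% in both H3 lists, and 31.7% had no mutant peak.

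The regions were then set against the most similar classes of wild-type H3K27me3. The first class comprised 1776 pieces of the same narrow H3K27me3 peaks that lay inside wild-type H3 peaks, selected under the same limits of length and position. In delta-asf1, the regions were covered by H3K27me3 to 22.7% and 36.8%, against 73.7% and 72.4% of these pieces. H3 covered 37.2% and 24.7% of the regions, against 80.6% and 51.3% of the pieces. The difference was −43.3 ± 10.9 percentage points for H3K27me3 and −35.0 ± 11.9 points for H3 (SD, n = 2 each). It was larger than the spread between replicates and negative in 4 of 4 lists, but the exact sign-flip test over 2 lists cannot go below p = 0.5. The difference between the antibodies was −8.31 points (exact two-sided permutation p = 0.667). Narrow H3K27me3 outside H3 peaks was therefore covered less than narrow H3K27me3 inside H3 peaks in each of the 4 mutant lists.

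The second class comprised 192 pieces shared by both wild-type H3K27me3 lists, also without H3 peaks, where the peak of either list was 5 kb or wider. These long peaks include the extended domains typical of this mark. In delta-asf1, H3K27me3 covered 22.7% and 36.8% of the narrow regions, against 15.4% and 23.5% of the wide pieces, a difference of 10.3 ± 4.17 points. H3 covered 37.2% and 24.7% of the narrow regions, against 15.4% and 8.20% of the wide pieces, a difference of 19.1 ± 3.67 points (n = 2 each; exact sign-flip p = 0.5 for each, the smallest possible). The narrow regions had the higher value in 4 of 4 lists. Relative to the interior, H3K27me3 minus H3 was −0.39 on the log2 scale for the narrow regions but 0.44 for the wide pieces (exact permutation p = 0.33 for each). In points, narrow minus wide for H3K27me3 less the same for H3 was −8.82 (exact permutation p = 0.33, the smallest possible).

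**Figure D3:**
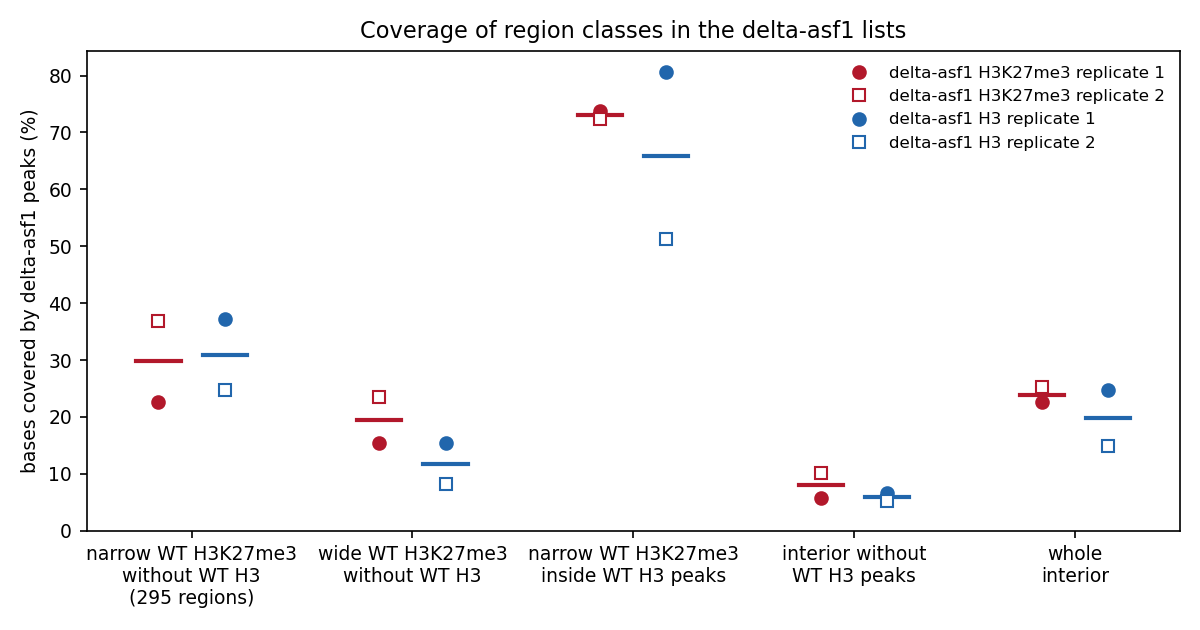
Percent of bases covered by peaks of the 4 delta-asf1 lists (y axis) in the 295 regions, in wide wild-type (WT) H3K27me3 pieces without H3 peaks, in narrow WT H3K27me3 pieces inside H3 peaks, in the chromosome interior without WT H3 peaks and in the whole interior. Points are lists and bars are means of 2 replicates. The regions lie between 22.7% and 37.2%, above the wide pieces of the same list and below the pieces inside H3 peaks.

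Positions on the chromosomes were not used by the rule, except for the exclusion of the outer 100 kb. The regions were more frequent toward chromosome ends. Of the 295 regions, 118 (40.0%) lay within 500 kb of an end, whereas 14.7% of all interior tiles and 16% of the H3-free tiles did. The share was 19.7% for narrow pieces inside H3 peaks and 61.5% for wide pieces. The median distance to the nearer end was 0.731 Mb for the regions and 1.46 Mb for all tiles. Leaving out a wild-type library lowered the share to between 27.8% and 33.5%, which was still above that of the tiles. The regions also lay closer to wide H3K27me3 peaks than tiles did, although most were farther than 10 kb from one. In 76 cases (25.8%) a wild-type H3K27me3 peak of 5 kb or wider was found within 10 kb, against 9.85% of all tiles and 11.7% of the narrow pieces inside H3 peaks. The median distance to a wide peak was 56.8 kb for the regions, 171 kb for all tiles and 127 kb for the pieces inside H3 peaks. Per Mb of interior, chromosomes 6 and 7 had 12.3 and 11.3 regions, chromosome 1 had 5.05, and chromosomes 2 to 5 had 6.53 to 8.56. No test of these positions over replicate samples was possible, since each region needed both wild-type replicates.

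Genes were taken from an annotation of assembly ASM3387043v1, of which locus tags and biotypes were available but neither product names nor strand. The regions had 64.2% of their length in genes, against 58.4% of the interior, 47.9% of the interior without wild-type H3 peaks and 80.4% of the narrow pieces inside H3 peaks. In detail, 152 regions (51.5%) lay wholly in genes, 88 (29.8%) partly and 55 (18.6%) outside. Wide pieces had 37.8% of their length in genes. The regions touched 248 protein-coding genes, 243 of them with 1 region and 5 with 2 regions, and 0 of the 433 interior tRNA genes. Of these protein-coding genes, 13 (5.24%) had no locus tag in the older annotation, against 6.03% of all 9907 interior protein-coding genes and 18.4% of those in wide pieces. Their median length of 2056 bp was near the 1948 bp of all interior genes, whereas genes in wide pieces had a median of 1257 bp. In gene content, the regions were thus closer to the genome at large than to the wide pieces.

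Whole-peak regions, without any H3 contact in the wild type, were covered less in delta-asf1 than edge regions. H3K27me3 covered 13.9% and 30.8% of whole-peak regions, against 26.5% and 39.4% of edge regions. H3 covered 16.5% to 26.5% of whole-peak regions, against 28.3% to 41.8% of edge regions. The difference was −10.7 ± 2.84 points for H3K27me3 and −13.5 ± 2.49 points for H3 (SD, n = 2 each; exact sign-flip p = 0.5, the smallest possible). It was negative in 4 of 4 lists but turned round among the upper 50% of peaks of each list, to 8.33 points for H3K27me3 and 5.72 points for H3, where regions and classes were also chosen again. At the common q cutoff, likewise with regions chosen again, the difference for H3 was −3.86 ± 4.03 points (SD, n = 2), within its own spread, and for H3K27me3 it was −9.68 ± 3.58 points. With source peaks of up to 10 kb it was −7.19 points for H3K27me3 and −7.69 points for H3. Without wild-type H3K27me3 replicate 1 it was −5.76 and −6.07 points, and for H3 it was −6.72 points without wild-type H3K27me3 replicate 2. No mutant peak base was found in 25 whole-peak regions (34.2%) and in 37 edge regions (16.7%). Interior coverage was itself lower away from wild-type H3 peaks. For H3K27me3 it was 3.31% and 7.24% beyond 1 kb, against 7.86% and 12.9% within 1 kb (replicates 1 and 2). For H3 it was 4.02% and 3.71%, against 9.09% and 6.69%. The difference between whole-peak and edge regions was not set against this background.

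Regions near wide H3K27me3 peaks or near chromosome ends were also covered less. Within 10 kb of a wide peak, H3K27me3 covered 12.8% and 30.2% in delta-asf1, against 26.8% and 39.5% farther away, a difference of −11.7 ± 3.39 points. For H3 the values were 26.8% and 20.8%, against 41.4% and 26.4% farther away (−10.1 ± 6.41 points). Within 500 kb of an end, H3K27me3 covered 12.7% and 34.9%, against 29.8% and 38.2% farther inside (−10.2 ± 9.81 points, little more than the replicate SD). For H3 the difference was −12.7 ± 5.23 points. All 8 of these differences between lists were negative, and none of the exact sign-flip tests over 2 lists can go below p = 0.5. By genes, regions outside genes had 21.4 and 10.3 points less H3K27me3 coverage than regions wholly in genes. For H3 the difference had no common sign, at −15.2 points in replicate 1 and 1.10 points in replicate 2. The same regions enter all of these groupings, and their separate parts were not tested. These differences were not set against interior coverage at the same positions.

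**Figure D4:**
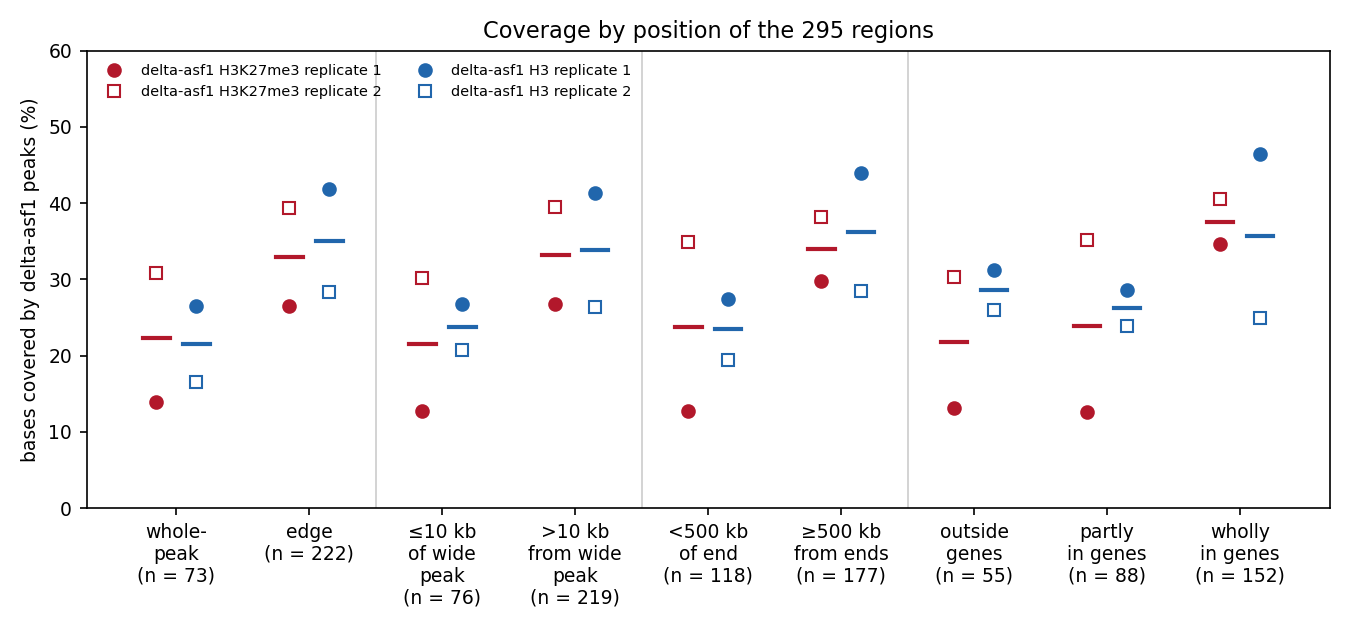
Percent of bases covered by peaks of the 4 delta-asf1 lists (y axis) for regions grouped by contact with wild-type H3 peaks, distance to a wide H3K27me3 peak, distance to a chromosome end and overlap with genes. Points are lists, bars are means of 2 replicates, and n is the number of regions. Whole-peak regions lie below edge regions in each of the 4 lists. Values are not divided by the coverage of a background.

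The longest regions show how far single loci varied. All positions are those of the assembly named Sm_v04_wtN in the lists, counted from 1. The longest, 2756 bp on chromosome 4 at 369584 to 372339, overlapped SMAC4_13600 and was an edge region 1.08 kb from a wide peak. In delta-asf1 it was covered by H3K27me3 to 9.94% and 45.6% and by H3 to 12% and 66.0%. Replicate 2 thus had more of both antibodies than replicate 1 at this locus. A whole-peak region of 2625 bp on the same chromosome, at 327495 to 330119, lay within SMAC4_09315 and had fold enrichments of 1.35 and 1.5 in the wild-type H3K27me3 lists. In delta-asf1, H3K27me3 peaks of replicate 2 covered 16.6% of it, and the other 3 lists had no peak there.

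On chromosome 5, the whole-peak region at 745258 to 747616 lay within SMAC4_09791, 3864 bp from the nearest H3 peak, with wild-type fold enrichments of 1.42 and 1.84. None of the 4 delta-asf1 lists had a peak base in it. The same held for 1069612 to 1071679 on chromosome 5, which overlapped SMAC4_08862 and SMAC4_08861 to 20.2% of its length. These were the longest of the 62 regions without any peak in the mutant. The others named by the same rule were 230350 to 232270 on chromosome 1, at SMAC4_09579, and 4898498 to 4900251 on chromosome 4, within SMAC4_09217.

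Further long regions had a peak in some of the mutant lists only. At 4307192 to 4309348 on chromosome 5, in SMAC4_09172, H3 of replicate 1 covered 63.4% and the other 3 lists nothing. At 437620 to 439632 on chromosome 3, outside genes and nearest to SMAC4_13436, replicate 2 covered 100% with H3K27me3 and 97.2% with H3, and replicate 1 had no peak with either antibody. Here the replicates, and not the antibodies, parted the lists. At 2825576 to 2827906 on chromosome 1, over SMAC4_13054 and SMAC4_13055, coverage was at most 4.42% in any list. At 3437169 to 3439234 on chromosome 6, nearest to SMAC4_09356, only the lists of replicate 1 had peaks, to 16.3% with H3K27me3 and 29.2% with H3. Of the 8 longest regions, 0 were covered to 50% or more in both lists of an antibody, beside 12.9% of all regions for H3K27me3 and 13.6% for H3. With 8 regions, a count of 0 is near these shares.

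The 3 regions that kept H3K27me3 without H3 in the mutant were short edge regions, all wholly within genes. The first, 561 bp on chromosome 4 at 3162373 to 3162933 in SMAC4_00113, was covered by H3K27me3 to 100% in both delta-asf1 lists. The second, 365 bp on chromosome 4 at 744709 to 745073 in SMAC4_08016, was covered to 92.1% and 100%. The third, 323 bp on chromosome 1 at 4941042 to 4941364 in SMAC4_04586, was covered to 100% in both. Each of them directly abutted a wild-type H3 peak, and wild-type fold enrichments were 1.27 to 1.41.

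Other regions had H3 peaks in both mutant replicates. The longest was 1581 bp on chromosome 2 at 5574025 to 5575605, of which 0.633% overlapped SMAC4_05091. In delta-asf1 it was covered by H3K27me3 to 88.6% and 100% and by H3 to 100% and 99.7%, so all 4 lists had it. A whole-peak region on chromosome 7 at 503774 to 505298, nearest to SMAC4_03842, was covered by H3K27me3 to 0% and 97.0% and by H3 to 51.8% and 97.8%. At 3312970 to 3314263 on chromosome 2, partly in SMAC4_06519, H3K27me3 covered 1.00% and 100% and H3 covered 100% in both replicates. At 2913965 to 2915134 on chromosome 2, at SMAC4_03974 and SMAC4_03973, H3K27me3 covered 0.855% and nothing, whereas H3 covered 100% and 82.1%. At the last of these regions, the mutant lists thus had H3 without appreciable H3K27me3.

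Ranked by the lower of their fold enrichments in the wild-type H3K27me3 lists, the first 4 were on chromosome 6 at 621973 to 622807 in part of SMAC4_05889 (1.73 and 1.59), on chromosome 5 at 204763 to 206258 with 5.08% of its length in SMAC4_13743 (1.54 and 2.10), and on chromosome 1 at 230350 to 232270 and 234090 to 234975, the second at SMAC4_13000. The regions on chromosome 1 came from the same source peaks (1.53 and 1.66). Among these 4 regions, 0 were covered to 50% or more in both delta-asf1 H3K27me3 lists, beside 12.9% of all regions, so nothing particular to them can be read from the count. H3K27me3 of replicate 2 covered 100% of the region at 234090, and H3 covered 98.7% of the region on chromosome 6 in replicate 2 and 62.8% of the region on chromosome 5 in replicate 1.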

How the data were processed

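The submitters' processing notes name fastp, Bowtie2 and MACS2, whose versions and settings are not given in the sources used here. Titles of the 8 input samples name each as the control of a single library. Whether peaks were called against these inputs is not given, and they were not analysed here. The authors deposited broad peaks per library, on assembly Sm_v04_wtN. Deposited columns give, for each peak, its score, its enrichment as a fold (ratio) over local background, and its p-value and q-value on the −log10 scale. Fold enrichment and q were used only to describe or filter peaks within lists. Lists hold no counts, so no counting interval is given.

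Coverage in bp was computed per list with Python 3.11.15, NumPy 2.4.6 and SciPy 1.17.1, and figures with matplotlib 3.10.9. The right chromosome end was the largest peak end of any list. The rule and the exact tests were tested on simulated data. Comparisons between antibodies used the exact two-sided permutation test over 4 delta-asf1 lists (6 assignments), and differences between classes the exact two-sided sign-flip test over 2 lists. Neither can reach 0.05. These p-values measure the spread between libraries, not between regions. Tiles of 500 bp served as background.

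The gene table (10804 genes, ASM3387043v1) bears another assembly name. Its coordinates were checked by shifting each list against the genes: in 56 of 56 pairs of chromosome and list, overlap with genes peaked within 100 bp of no shift (76.6% of peak length unshifted, 59.5% at shifts of 3 to 5 kb). Without product names, genes were grouped by biotype only.

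The regions named are the 8 longest, the 4 longest with both H3 lists and with no mutant peak, up to 4 with H3K27me3 in both lists and no H3, and the 4 ranking first by the lower of their wild-type H3K27me3 fold enrichments, with the genes overlapping or nearest. The regions, classes and lists of alternatives were chosen with earlier results of these data known, and comparisons relative to the interior without wild-type H3 peaks, and by distance to these peaks, were added after seeing the data. No bases are printed.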

Additional observations from a re-analysis of the deposited data

How the results depend on the processing

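Of 23 alternatives, 23 left the antibody difference in delta-asf1 negative (−0.66 to −0.08), and 0 passed the threshold, which the design cannot reach. The alternative with the replicate number as a block keeps the main value of −0.39 by construction, so its sign could not change (exact sign-flip p = 0.5, the smallest possible). Labels do not say what a number shares, and over the regions the deviations of the antibodies correlated at 0.13. The difference in H3 coverage to narrow pieces inside H3 peaks ranged from −43.4 to −26.6 points. The number of regions was 187 with a minimum of 500 bp and 176 among the upper 50% of peaks.

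The share of whole-peak regions was 30.6% with a width limit of 3 kb, 59.1% among the upper 50% of peaks and 41.7% at the common q cutoff. Whole-peak minus edge was −13.5 points for H3K27me3 and −18.0 for H3 with a limit of 3 kb, and −7.19 and −7.69 with 10 kb. Among the upper 50% of peaks it reversed to 8.33 and 5.72. For H3 it was −3.86 at the common cutoff. The cause was not tested.

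Among the upper 50% of peaks, both H3 lists covered 9.09% of the regions and 29.5% had no mutant peak. At the common cutoff, with 278 regions chosen again, the shares were 8.63% (both H3K27me3 lists), 5.76% (both H3 lists) and 31.7% (no peak). Counting any overlap gave 21.7% for H3K27me3 and 20% for H3. Genes with 500 bp on either side held 80.7% of region length. Beyond 200 kb from ends, 34.4% of the regions lay within 500 kb. Tiles of 1 kb gave a background of 12.7% for both H3K27me3 lists and 8.52% for both H3 lists.

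Leaving out each library gave these ranges: 510 to 1997 regions, 18.3% to 43.7% H3K27me3 coverage, 15.1% to 40.8% H3 coverage, 5.21% to 36.9% covered in the H3K27me3 lists, 4.66% to 39.0% in the H3 lists, 10.3% to 37.3% without a peak, 57.8% to 69.3% of length in genes, 27.9% to 43.9% whole-peak regions, 27.8% to 33.5% within 500 kb of ends, and differences of whole-peak to edge regions of −12.7 to −5.76 points for H3K27me3 and −15.3 to −6.07 points for H3. The depth of the libraries is unknown, and what it adds to the differences between replicates was not tested.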

Other observations

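Pieces that met the same rule within 100 kb of a chromosome end were left out of the regions. There were 10, with a summed length of 7.96 kb. In delta-asf1, H3K27me3 peaks covered 10.5% of their length in replicate 1 and 40.7% in replicate 2, and H3 peaks covered 5.08% and 0%. In 4 of them, no mutant list had a peak base. On chromosome 2, 8 regions lay between 0.6 and 1.4 Mb, where delta-asf1 peaks covered them to 77.9% and 40.4% with H3K27me3 and to 84.6% and 33.7% with H3. Both lists of replicate 1 were thus well above those of replicate 2 in this segment.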
